A study of Homo sapiens with 10 samples.

Results

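The interleukin genes comprise the secreted interleukins, their soluble antagonists and the chains of their receptors. They were taken here as every gene whose current symbol starts with IL and a digit and that has a named row in the deposited table. Antisense and divergent transcripts (4 rows) were left out, and CXCL8, once called IL8, does not fall under the rule. This gave 52 genes of the 14884 with a named row, or 27 ligands, 3 antagonists, 21 receptor genes and the enzyme gene IL4I1, each with 1 row. The RefSeq gene table holds 85 protein-coding genes with such symbols, and the other 33, among them IL6, IL6ST, IL1A, IL1B, IL1R1, IL10RB, IL13RA1, IL11RA, IL15RA and IL2RG, have no named row and were not analysed here.

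PC-3 is an established human prostate cancer line grown from a bone metastasis, and it lacks androgen receptor activity. The study compared 5 clonal isolates of PC-3 that carried the p-Lenti vector with the CENPU gene (clones 1, 4, 5, 7 and 13) with 5 isolates that carried the empty vector (control clones 1 to 5). Both groups had been selected with the antibiotic blasticidin (spelled blastocydin in the labels), and each clone was hybridised once to an Affymetrix array after biotin labelling. The labels do not state which promoter drives CENPU. CENPU encodes a protein of the inner kinetochore, and the comparison addresses what its overexpression does to the transcripts of these cells.

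Interleukins are secreted proteins through which cells signal to themselves and their neighbours. Receptors of the IL-2, IL-4, IL-6 and IL-10 type signal through JAK kinases and STAT factors, receptors of the IL-1 family through MYD88 and IRAK kinases, and receptors of the IL-17 family through the adaptor ACT1 and TRAF6. Epithelial cells make few of the ligands that lymphocytes use among themselves, and they carry receptors for many of the others. PC-3 cells are known to secrete IL-6 and IL-8 in culture.

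All values are log2 expression values of 1 row, so a difference of 1 is a doubling. Probes differ in how strongly they bind, and the level of a gene is therefore set only against itself across clones or against a background level. CENPU checked the labels, with 8.70 to 9.84 in CENPU clones against 5.78 to 6.56 in control clones. Of 13 prostate and epithelial markers 9 had a row. The prostate marker HOXB13 and the epithelial keratins KRT18 and KRT19 were above the strict background level described below in all 10 clones, EGFR in 4 and EPCAM in 3, whereas the keratins KRT8 and KRT5 and the androgen receptor targets KLK2 and KLK3 were above it in 0 clones. Of 13 leukocyte markers 6 had a row, and CD2, CD14, LYZ, NKG7 and TYROBP were above that level in 0 clones, whereas the lysosomal CD68 was above it in 10. Of 10 fibroblast and endothelial markers 5 had a row, with DCN and LUM above even the lower background level in 0 clones. PECAM1 and VWF were above the lower level in 10 clones and above the strict one in 0. The VEGF receptor KDR was above the strict one in 9. Pearson correlations between arrays lay between 0.918 and 0.993 over named rows, and array medians between 4.62 and 4.76.

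Promoter windows are shown for the members whose decrease stood in every fit that left out 1 clone, IL32 and IL4R, and for the 1 member that rose, IL17RE. They are RefSeq sequences of the build GRCh38.p14, given 5′ to 3′ on the strand of the gene, from 250 bases before to 50 bases after the start that the RefSeq table assigns. Capitals mark matches to the kappaB consensus on either strand, the motif that NF-kB dimers bind. The windows lie at chr16:3065153-3065452 for IL32, chr16:27313724-27314023 for IL4R and chr3:9902598-9902897 for IL17RE, all on the plus strand.
IL32: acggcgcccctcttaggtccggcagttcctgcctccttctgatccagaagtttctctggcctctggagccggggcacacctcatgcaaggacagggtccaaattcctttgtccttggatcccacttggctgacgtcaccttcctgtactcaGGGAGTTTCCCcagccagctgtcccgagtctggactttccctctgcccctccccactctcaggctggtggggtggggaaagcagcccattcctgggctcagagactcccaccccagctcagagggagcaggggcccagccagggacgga
IL4R: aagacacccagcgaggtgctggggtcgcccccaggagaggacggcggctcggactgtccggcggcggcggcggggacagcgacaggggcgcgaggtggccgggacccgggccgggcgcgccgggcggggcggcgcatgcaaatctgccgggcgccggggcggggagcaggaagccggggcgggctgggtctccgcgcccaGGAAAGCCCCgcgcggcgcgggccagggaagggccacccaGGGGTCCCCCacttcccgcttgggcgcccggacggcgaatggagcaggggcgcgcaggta
IL17RE: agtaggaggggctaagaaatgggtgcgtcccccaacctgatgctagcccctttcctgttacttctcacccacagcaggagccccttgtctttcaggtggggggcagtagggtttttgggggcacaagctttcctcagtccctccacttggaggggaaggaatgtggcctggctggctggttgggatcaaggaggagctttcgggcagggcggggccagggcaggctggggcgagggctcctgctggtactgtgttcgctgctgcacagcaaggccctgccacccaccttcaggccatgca

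IL32 held 2 overlapping matches, at position -99 on the plus strand and -98 on the minus strand, offset by 1 base. IL4R held 2 matches, at positions -50 and -10, and lay in a window of 79.3% G and C with 42 CpG dinucleotides. The IL32 window had 62.3% G and C with 7 CpG dinucleotides, and the IL17RE window had 62% with 5. The median over 27305 promoter windows of the same length was 58.3%. The kappaB consensus was found in 5.72% of those windows and in 6 of the 40 members that had one, namely IL17D, IL17REL, IL1RAPL1, IL32, IL36RN and IL4R. The windows of IL32, IL4R, IL4I1, IL18BP and IL17RE were also searched on both strands for the AP-1 motif TGANTCA, the STAT motif TTCNNNGAA, and the letters TATAAA and CCAAT, and 0 matches were found in these 5 windows. Those letters occur in 7.76%, 7.88%, 12% and 35.7% of all windows, in that order. Of the 40 member windows, 17.5%, 7.5%, 17.5% and 40% held them. IL17RA had no window of this kind. A match describes letters and does not show binding.

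Which members PC-3 expresses was read against background levels, because the values carry no detection call. The lower level was the 25th percentile of all rows in the same clone, 3.36 to 3.45, and it separates only the dimmest rows. The strict level was the 95th percentile of 101 genes of hair and cornified skin (84 KRTAP and 17 LCE genes), taken here as genes that a prostate line does not transcribe, and it lay between 6.83 and 7.75. The strict level was chosen after the data had been seen. Above the strict level in all 10 clones were 4 members, the receptor chains IL4R, IL17RA and IL17RC and the enzyme gene IL4I1. IL4R is a chain of the receptors for IL-4 and IL-13. IL17RA is the chain shared by the IL-17 receptors, and IL17RC pairs with it to bind IL-17A and IL-17F. IL4I1 is an amino acid oxidase induced by IL-4 and not an interleukin. No ligand was above the strict level in every clone. At the 90th percentile of the hair and skin genes the count was 6, with IL6R, the ligand-binding chain for IL-6, and the epithelial cytokine IL17C added.

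IL37 was above the strict level in 3 clones, IL32 and IL17RD in 2 each, and IL6R, IL7R and IL1RL1 in 1 each, while the other members did not reach it in any clone. A signal under that level was not set apart from background here. The level is not a detection limit, and the epithelial keratin KRT8 was above it in 0 clones. Differences are given below for members under it too. Above the lower level in all 10 clones were 37 members, 17 ligands, 2 antagonists, 17 receptor genes and IL4I1. In 0 clones above it were 5 members, the lymphocyte cytokine genes IL2, IL21, IL22 and IL26 and the receptor gene IL23R, whose highest value was 3.32, in IL22. Another 10 members passed it in only some clones. These were IL4, IL7, IL10, IL15, IL20, IL33, IL1RN, IL1RAPL1, IL1RAPL2 and IL18RAP.

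**Figure D1:**
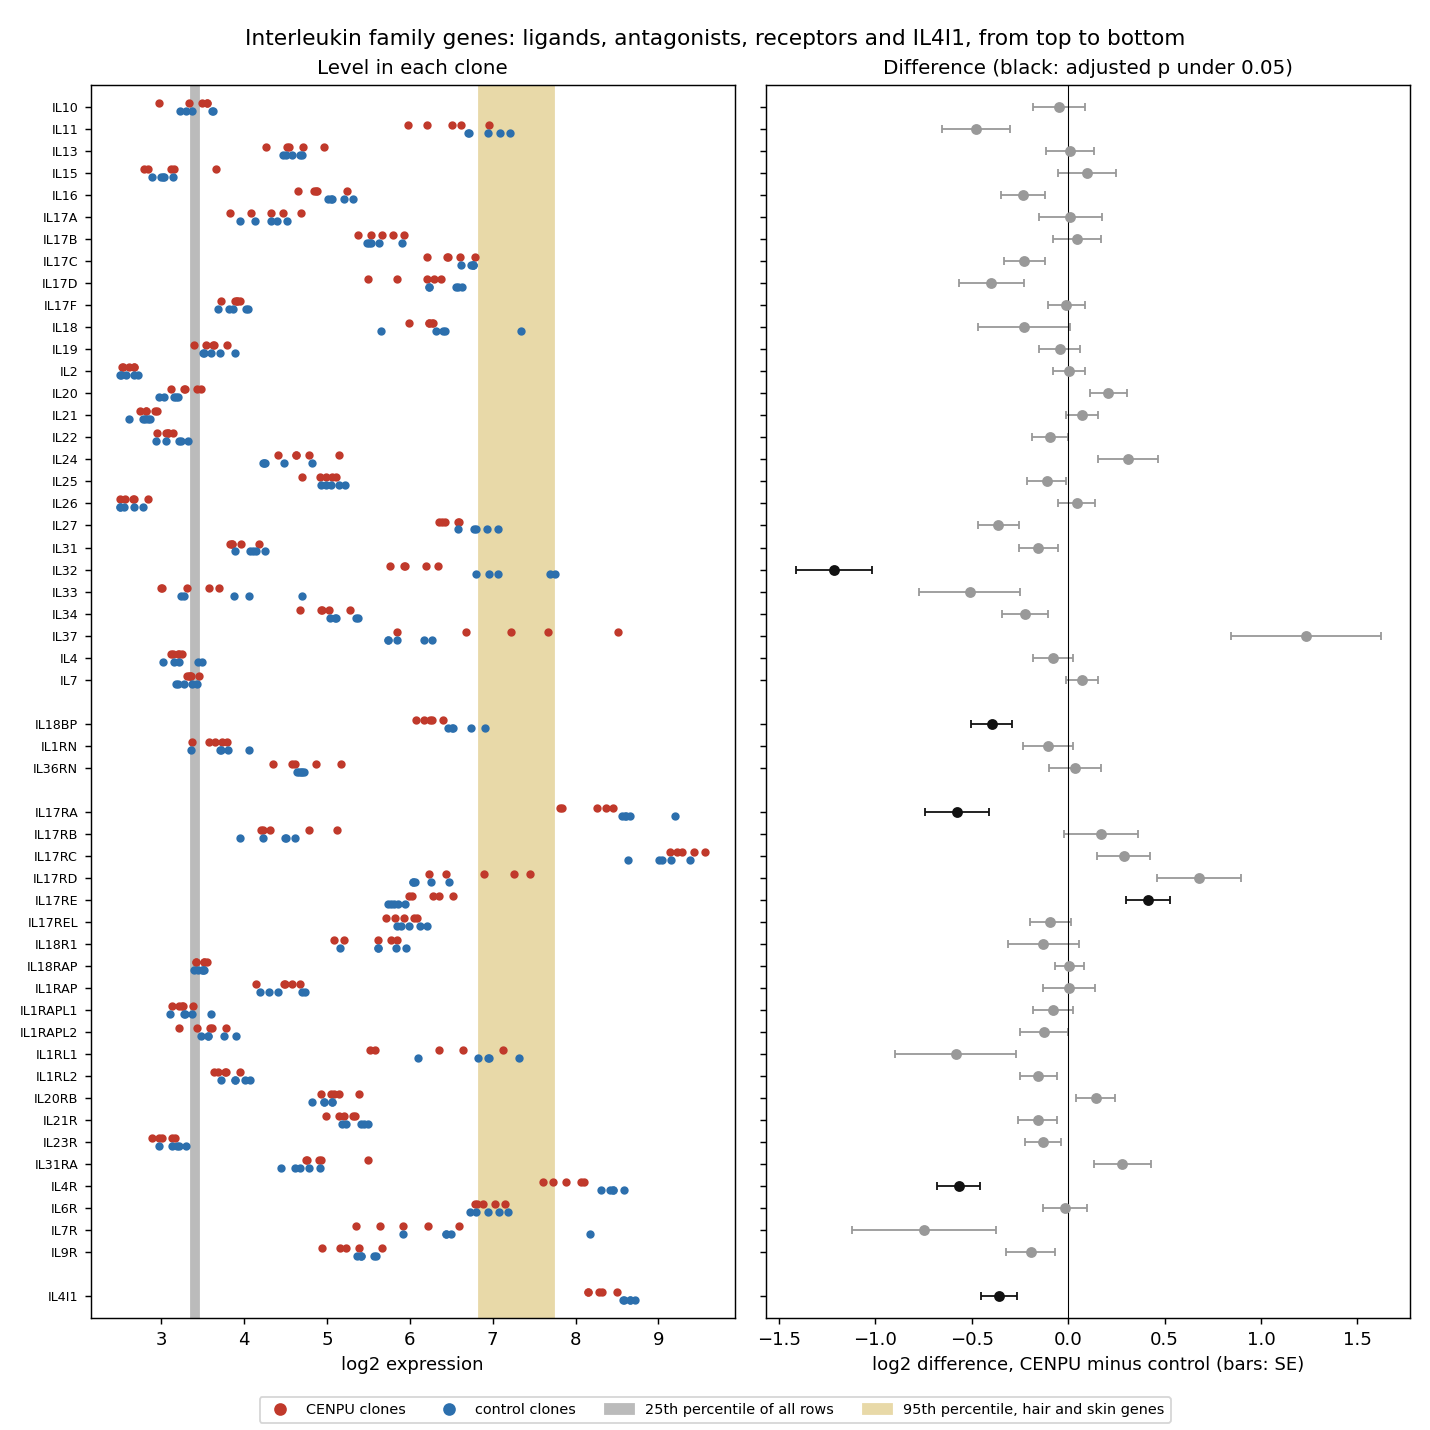
Left, the log2 expression of the 52 members in each of the 5 CENPU and 5 control clones, with the range over clones of both background levels shaded. Right, the log2 difference of CENPU minus control clones with its standard error, in black for the 6 members with a limma adjusted p under 0.05. IL17RA, IL17RC and IL4I1 lie right of the shaded strict level in all clones. IL4R is above the strict level of each clone itself, but CENPU clones 7 (7.73) and 13 (7.60) fall inside the shaded range. IL32 shows the largest decrease among the members.

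Between the groups, 6 of the 52 members passed at a limma adjusted p under 0.05, with 5 lower and 1 higher in CENPU clones. IL32, IL4R, IL4I1, IL18BP and IL17RA fell, and IL17RE rose. That is 11.5% of the members, where 10.1% of all 14884 genes passed, so the share of members is near the background. By direction, 9.62% of members were lower where 4.79% of all genes were, and 1.92% were higher where 5.31% of all genes were. In the same 6 members no CENPU clone reached into the range of the control clones, against 9.73% of all genes, with 4.54% of all genes higher and 5.19% lower in that sense. The median log2 difference was -0.09 over the members and -0.02 over all genes, and 32 members had a negative and 20 a positive difference. The median SD within a group was 0.20 in CENPU clones and 0.17 in control clones over the members, against 0.22 and 0.17 over all genes. In bulk RNA, fewer cells that transcribe a gene and less RNA per cell cannot be told apart.

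Among the ligands, 1 of 27 passed, or 3.7% where 10.1% of all genes did. IL32, which encodes an intracellular and secreted proinflammatory cytokine of lymphocytes and epithelia, had 6.20, 5.94, 6.35, 5.94 and 5.76 in CENPU clones 1, 4, 5, 7 and 13, against 7.70, 7.07, 7.75, 6.95 and 6.80 in control clones 1 to 5. Every CENPU clone lay below every control clone, and the highest control values were those of clones 1 and 3. The mean was 6.04 ± 0.23 in CENPU clones against 7.25 ± 0.44 in control clones (SD, n = 5 each). The log2 difference was -1.22 (standard error 0.20, limma adjusted p = 0.00534). All CENPU values were under the strict background level, so no fold change is given. The exact two-sided permutation test over clones gave p = 0.00794, the smallest value it can give here.

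IL37, an anti-inflammatory cytokine of the IL-1 family, had the largest positive difference of the members and did not pass. It had 5.84, 8.51, 7.22, 7.66 and 6.68 in CENPU clones 1, 4, 5, 7 and 13, against 6.26, 5.73, 6.17, 5.73 and 5.85 in control clones 1 to 5. CENPU clones 4, 5, 7 and 13 were above every control clone, and CENPU clone 1 lay among the controls. The mean was 7.18 ± 1.01 in CENPU clones against 5.95 ± 0.25 in control clones (SD, n = 5 each), and the log2 difference of 1.23 had a standard error of 0.39 (limma adjusted p = 0.0663). Without CENPU clone 1 the difference was 1.57 and passed (limma adjusted p = 0.00941), as it did with array weights. The difference passed in none of the other fits that left out 1 clone, and without CENPU clone 4 it was 0.90 (limma adjusted p = 0.0747). Without control clone 2 and CENPU clones 7 and 13 together it was 1.19 (limma adjusted p = 0.218). IL37 lies among IL-1 family genes on chromosome 2, and of its neighbours with a row, IL36RN differed by 0.03 and IL1RN by -0.11, neither of which passed.

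IL27, the cytokine subunit that pairs with EBI3, did not pass, at 6.47 ± 0.11 in CENPU clones against 6.83 ± 0.18 in control clones (SD, n = 5 each; log2 difference -0.36, limma adjusted p = 0.0507). IL11, a cytokine of the IL-6 type that acts on bone and stroma, had 6.46 ± 0.38 in CENPU clones against 6.93 ± 0.22 in control clones (SD, n = 5 each; log2 difference -0.48, limma adjusted p = 0.107). IL27 passed after quantile normalization, median centring or with array weights, and without CENPU clone 1, CENPU clone 4 or control clone 1, and IL11 passed without CENPU clone 1. Neither gene separated the groups, although 4 of the 5 CENPU clones were below every control clone in IL11 and 3 in IL27. IL33, the alarmin that signals through IL1RL1, differed by -0.51 (limma adjusted p = 0.23), with 2.99 to 3.69 in CENPU clones against 3.23 to 4.69 in control clones. It was above the lower background level in only 5 clones, and its difference was -0.29 without control clone 3.

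The IL-17 ligands IL17A, IL17B, IL17C, IL17D, IL17F and IL25 had log2 differences from -0.40 to 0.05. Of these 6, 0 passed and 1 had an unadjusted p under 0.05 (limma). Over all genes 10.1% passed, and 4147 of 14884 had an unadjusted p under 0.05 (limma). The largest difference of the 6 was that of IL17D, with 6.04 ± 0.37 in CENPU clones against 6.44 ± 0.20 in control clones (SD, n = 5 each; limma adjusted p = 0.151). IL17A and IL17F, the ligands of the receptor with IL17RC, differed by 0.01 and -0.01, IL17B by 0.05 and IL25 by -0.11 (limma adjusted p = 0.971, 0.964, 0.845 and 0.516). IL17C, which acts through IL17RA and IL17RE, had 6.50 ± 0.21 in CENPU clones against 6.73 ± 0.06 in control clones (SD, n = 5 each; limma adjusted p = 0.196). The 6 measured ligands of the IL-10 family, IL10, IL19, IL20, IL22, IL24 and IL26, differed by -0.10 to 0.31, and 0 of them passed or had an unadjusted p under 0.05 (limma). IL24, at 4.72 ± 0.27 in CENPU clones against 4.40 ± 0.26 in control clones (SD, n = 5 each), had the largest of these differences (limma adjusted p = 0.215). IL20, under the lower background level in 9 clones, differed by 0.21, and IL19 by -0.04 (limma adjusted p = 0.182 and 0.826).

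IL16, a chemoattractant for CD4 cells, differed by -0.23, and IL34, which like CSF1 binds the CSF1 receptor, by -0.22 (limma adjusted p = 0.211 and 0.247). IL18, an inflammasome-processed cytokine, had 5.99 to 6.28 in CENPU clones against 5.65 to 7.34 in control clones, and its difference of -0.23 did not pass (limma adjusted p = 0.571). The spread of IL18 was 0.12 in CENPU clones and 0.60 in control clones (SD, n = 5 each). IL31, the itch cytokine, had 3.93 ± 0.14 in CENPU clones against 4.09 ± 0.13 in control clones (SD, n = 5 each; limma adjusted p = 0.34). IL15, IL7, IL4, IL2 and IL21 differed by -0.08 to 0.10, all short of the threshold and near or under the lower background level.

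Among the antagonists, IL18BP, the decoy that binds and neutralises IL-18, fell. It had 6.40, 6.24, 6.27, 6.07 and 6.17 in CENPU clones 1, 4, 5, 7 and 13, against 6.74, 6.52, 6.91, 6.51 and 6.46 in control clones 1 to 5. The groups did not overlap, and the gap between CENPU clone 1 and control clone 5 was narrow. IL18BP was above the strict background level in 0 clones, so no fold change is given. The log2 difference of -0.40 passed (standard error 0.11, limma adjusted p = 0.0402). IL1RN, the IL-1 receptor antagonist, and IL36RN, that of the IL-36 receptor, differed by -0.11 and 0.03 and did not pass (limma adjusted p = 0.634 and 0.897).

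IL4R fell among the receptors, with 8.10, 8.07, 7.89, 7.73 and 7.60 in CENPU clones 1, 4, 5, 7 and 13, against 8.30, 8.45, 8.46, 8.59 and 8.42 in control clones 1 to 5. All CENPU clones were below all control clones. The mean was 7.88 ± 0.21 in CENPU clones against 8.44 ± 0.10 in control clones (SD, n = 5 each), a 1.48-fold decrease (log2 difference -0.57, standard error 0.11, limma adjusted p = 0.0124). Its neighbour on chromosome 16, the cytokine receptor gene IL21R, differed by -0.16 (limma adjusted p = 0.339). The ligands IL4 and IL13 differed by -0.08 and 0.01 (limma adjusted p = 0.653 and 0.964), and neither was above the strict level in any clone.

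IL4I1 had 8.51, 8.14, 8.32, 8.29 and 8.14 in CENPU clones 1, 4, 5, 7 and 13, against 8.71, 8.66, 8.59, 8.57 and 8.66 in control clones 1 to 5. The groups did not overlap, and the control clones lay close together, with an SD of 0.06 (n = 5) against 0.15 in CENPU clones (n = 5). IL4I1 thus fell 1.28-fold (log2 difference -0.36, standard error 0.09, limma adjusted p = 0.0315).

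**Figure D2:**
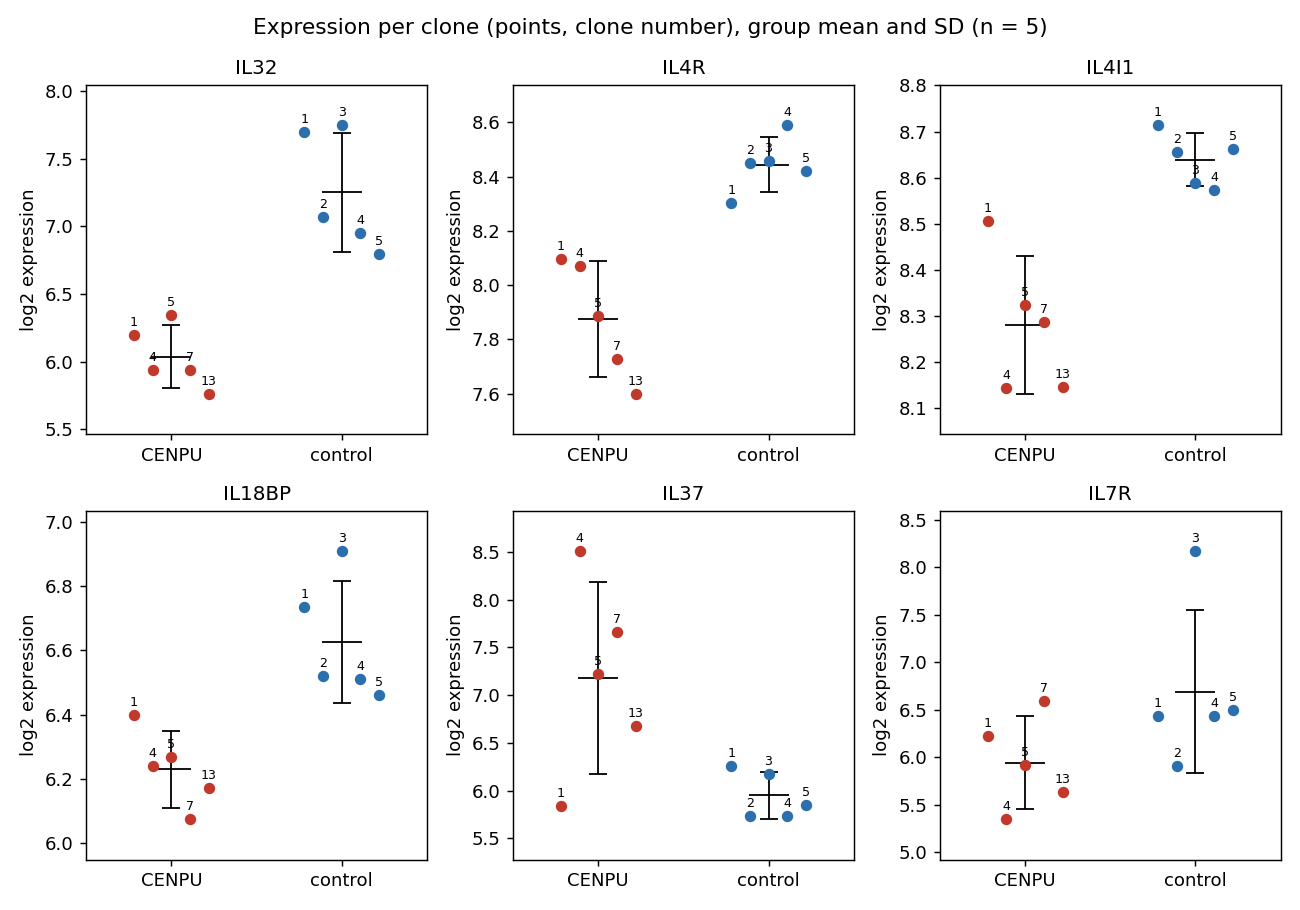
Log2 expression of IL32, IL4R, IL4I1, IL18BP, IL37 and IL7R in each clone (points with clone numbers), with the group mean and SD (n = 5), CENPU clones left of control clones. The groups do not overlap in IL32, IL4R, IL4I1 and IL18BP, and they do in IL37 and IL7R, where control clone 3 stands at 8.17.

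Of the 6 measured IL-17 receptor genes, 1 fell, 1 rose and 4 did not pass. The share passing was 33.3%, against 10.1% of all genes. IL17RA fell, with 8.36, 8.26, 8.45, 7.82 and 7.84 in CENPU clones 1, 4, 5, 7 and 13, against 8.56, 8.66, 8.60, 8.60 and 9.20 in control clones 1 to 5. CENPU clones 7 and 13 were the lowest, control clone 5 stood above all others, and the groups did not overlap. This was a 1.49-fold decrease (log2 difference -0.58, standard error 0.16, limma adjusted p = 0.0467).

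IL17RE, the partner chain of IL17RA in the receptor for IL-17C, rose. It had 6.03, 6.28, 6.36, 6.53 and 5.99 in CENPU clones 1, 4, 5, 7 and 13, against 5.74, 5.77, 5.81, 5.85 and 5.94 in control clones 1 to 5. Every CENPU clone was above every control clone, with CENPU clone 13 and control clone 5 nearly level. All 10 values were under the strict background level, so no fold change is given. The log2 difference of 0.41 passed (standard error 0.11, limma adjusted p = 0.041). It did not pass after quantile normalization of the arrays, where 0 members were higher and 6 lower.

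IL17RC, next to IL17RE on chromosome 3, had 9.33 ± 0.17 in CENPU clones against 9.04 ± 0.27 in control clones (SD, n = 5 each), and its difference of 0.29 did not pass (limma adjusted p = 0.197). IL17RD, a membrane protein that also restrains FGF signalling, had 6.23, 6.44, 7.26, 6.89 and 7.45 in CENPU clones 1, 4, 5, 7 and 13, against 6.47, 6.04, 6.04, 6.06 and 6.26 in control clones 1 to 5. CENPU clones 5, 7 and 13 were above every control clone, and CENPU clones 1 and 4 were not. Its log2 difference of 0.68 had a standard error of 0.22 (limma adjusted p = 0.0688), and it passed with array weights and without CENPU clone 1 or CENPU clone 4 but in none of the other fits that left out 1 clone. Without control clone 2 and CENPU clones 7 and 13 together the difference was 0.43 (limma adjusted p = 0.352). IL17RB, the IL-25 receptor chain, and the related IL17REL differed by 0.17 and -0.09 and did not pass (limma adjusted p = 0.6 and 0.611).

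**Figure D3:**
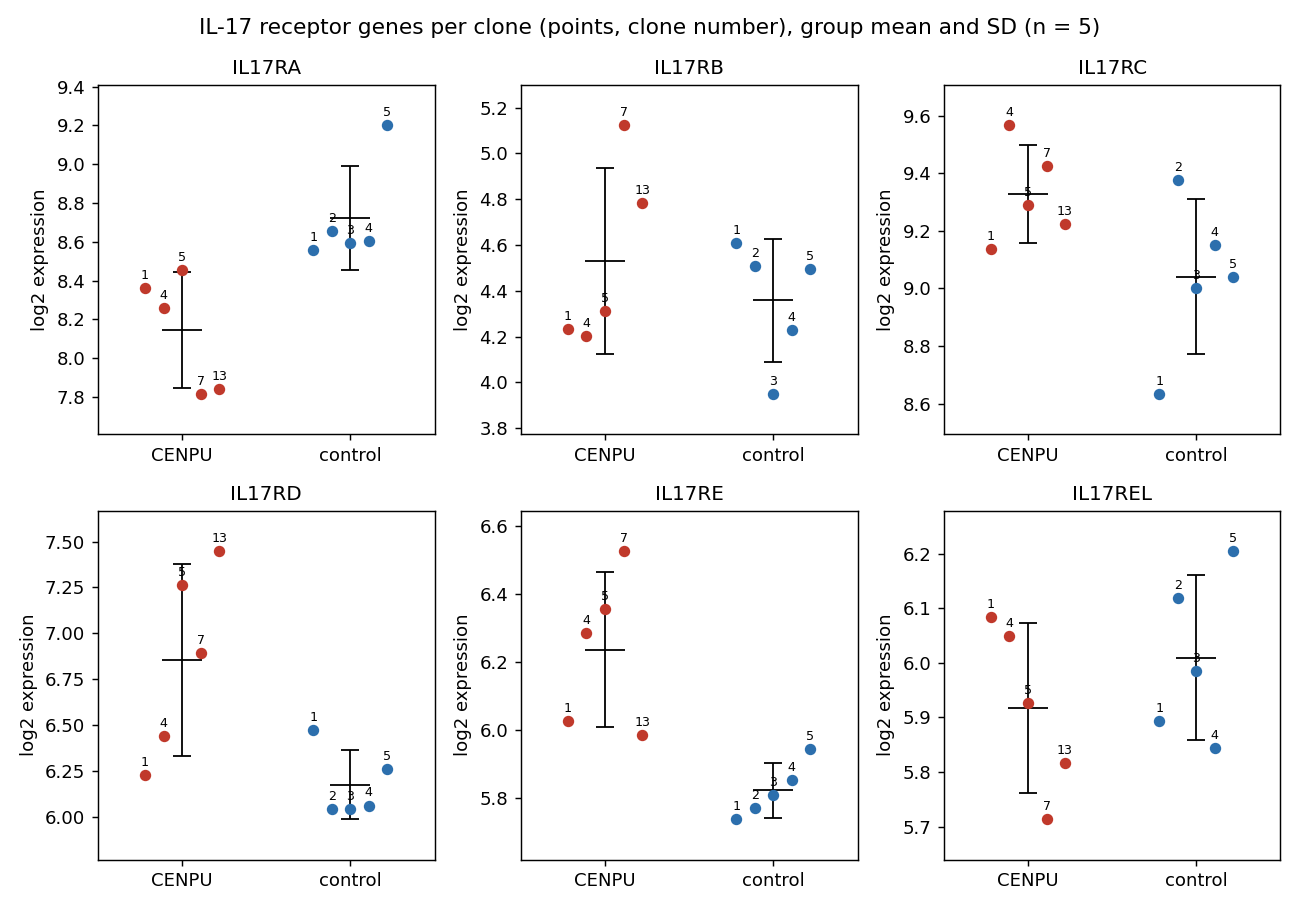
Log2 expression of the 6 measured IL-17 receptor genes in each clone (points with clone numbers), with the group mean and SD (n = 5), CENPU clones left of control clones. IL17RA is lower and IL17RE higher in every CENPU clone than in every control clone, and the groups overlap in the other genes.

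Of the 7 measured receptor genes of the IL-1 family, 0 passed or had an unadjusted p under 0.05 (limma), with log2 differences from -0.58 to 0.01. Of all 14884 genes, 10.1% passed and 4147 had an unadjusted p under 0.05 (limma). IL1RL1, the receptor for IL-33, had 6.64, 5.58, 5.52, 7.13 and 6.35 in CENPU clones 1, 4, 5, 7 and 13, against 6.94, 6.09, 7.32, 6.82 and 6.95 in control clones 1 to 5. CENPU clones 4 and 5 were lowest and control clone 3 highest, and the groups overlapped (log2 difference -0.58, limma adjusted p = 0.25). Its neighbours on chromosome 2, IL1RL2, IL18R1 and IL18RAP, differed by -0.16, -0.13 and 0.01 (limma adjusted p = 0.314, 0.689 and 0.965). IL1RAP, the accessory chain of IL-1, IL-33 and IL-36 receptors, differed by 0.01, with 4.15 to 4.67 in CENPU clones against 4.20 to 4.74 in control clones (limma adjusted p = 0.982). The synaptic proteins IL1RAPL1 and IL1RAPL2, which carry IL-1 receptor domains, differed by -0.08 and -0.13.

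IL7R, the receptor chain for IL-7 and TSLP, varied most among the control clones. It had 6.22, 5.35, 5.92, 6.60 and 5.64 in CENPU clones 1, 4, 5, 7 and 13, against 6.44, 5.91, 8.17, 6.44 and 6.49 in control clones 1 to 5. The groups overlapped, and the log2 difference of -0.75 did not pass (limma adjusted p = 0.217). It was -0.38 without control clone 3. IL6R, with 6.93 ± 0.15 in CENPU clones against 6.95 ± 0.19 in control clones (SD, n = 5 each), differed by -0.02 (limma adjusted p = 0.945). IL31RA, the IL-31 receptor chain, differed by 0.28, with 4.75 to 5.49 in CENPU clones against 4.44 to 4.91 in control clones (limma adjusted p = 0.241). IL20RB, shared by receptors of IL-19, IL-20 and IL-24, differed by 0.14, IL9R by -0.19 and IL23R by -0.13 (limma adjusted p = 0.38, 0.343 and 0.393).

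Of the members, 10 had their highest value of all clones in control clone 3, or 19.2%, where 7.48% of all genes did. These were IL10, IL11, IL18, IL18BP, IL1RAPL1, IL1RL1, IL21R, IL32, IL33 and IL7R. Control clone 3 was singled out after the data were seen. The share also exceeded that of all genes in control clones 4 (17.3% against 8.53%) and 5 (13.5% against 7.7%), and in CENPU clones 1 and 4. It was under that of all genes in the other clones, most in CENPU clone 13 (3.85% against 20.8%). The 6 calls also depended on single clones. IL32 and IL4R passed in all 10 fits that left out 1 clone, whereas IL17RA passed in 3, IL4I1 and IL17RE in 2 each, and IL18BP in 1. The members passing numbered 2 without CENPU clone 7, or without any of control clones 2, 3, 4 and 5, 3 without CENPU clone 5, CENPU clone 13 or control clone 1, 6 without CENPU clone 4, and 10 without CENPU clone 1. Without control clone 2 and CENPU clones 7 and 13 together, IL32 passed with a difference of -1.14 (limma adjusted p = 0.0328) and IL1RL1 with -1.10 (limma adjusted p = 0.0456). The differences of IL4R (-0.43), IL17RA (-0.38), IL18BP (-0.35), IL4I1 (-0.31) and IL17RE (0.39) did not pass there.

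**Figure D4:**
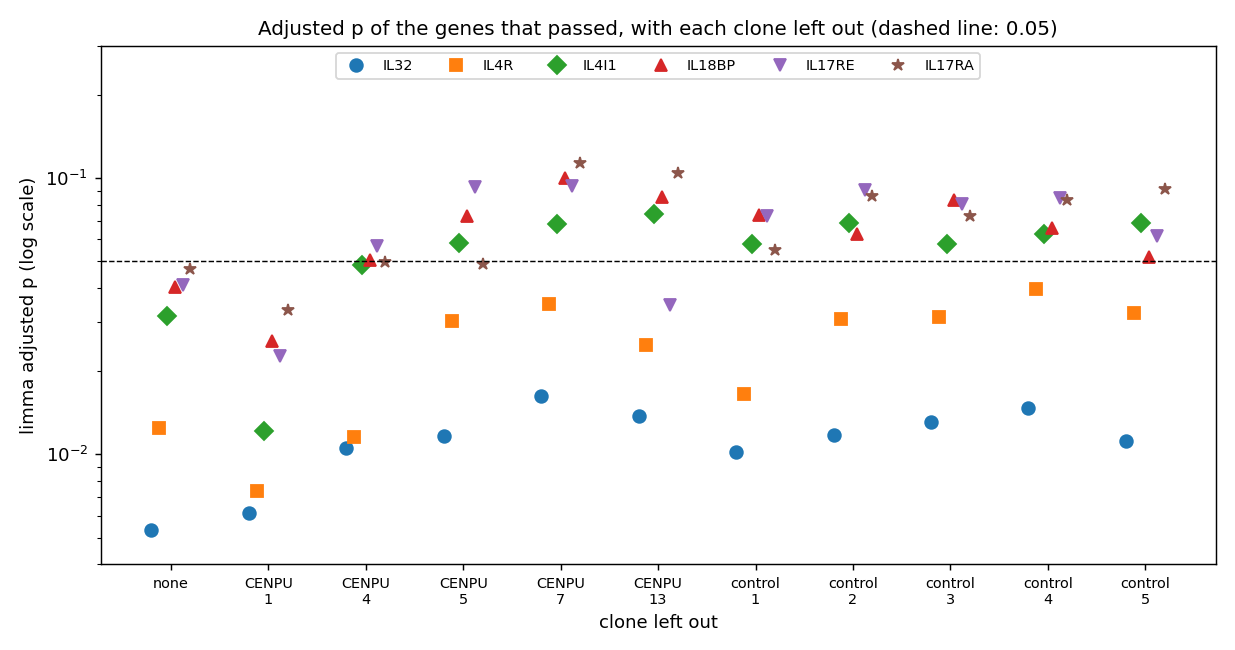
Limma adjusted p (log axis) of the 6 members that passed, with no clone left out and with each clone left out in turn. IL32 and IL4R stay under the dashed line at 0.05 in all 10 fits, and the other 4 genes are above it in most.

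Signalling genes downstream of the receptors were read as lists of gene names, chosen with earlier results of these data known. In the list of IL-1 and IL-17 receptor adaptors and kinases, 16 of 22 genes had a row, with TAB2 higher, MYD88 and TIRAP lower and 13 short of the threshold, or 18.8% passing where 10.1% of all genes did. MYD88, the adaptor of IL-1 family receptors, had 7.69, 7.98, 7.66, 7.67 and 7.75 in CENPU clones 1, 4, 5, 7 and 13, against 8.38, 8.05, 8.28, 8.36 and 8.50 in control clones 1 to 5. The groups did not overlap, and MYD88 fell by 0.56 on the log2 scale with a standard error of 0.11 (limma adjusted p = 0.0102). TIRAP, the adaptor that brings MYD88 to Toll-like receptors, fell by 0.44, and TAB2, which links TRAF6 to the kinase TAK1, rose by 0.82 (limma adjusted p = 0.0233 and 0.0367). TIRAP and TAB2 were each above the strict background level in 0 clones. The list median was 0.21, against -0.02 over all genes.

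Of 11 JAK and STAT genes 8 had a row, and JAK2 alone passed, or 12.5% against 10.1% of all genes. The list median was 0.01. JAK2 rose by 0.51, with 4.22 ± 0.13 in CENPU clones against 3.71 ± 0.11 in control clones (SD, n = 5 each; limma adjusted p = 0.0102), levels above the strict background in 0 clones. JAK1 had 9.33 ± 0.60 in CENPU clones against 8.45 ± 0.42 in control clones (SD, n = 5 each), and its difference of 0.88 did not pass (limma adjusted p = 0.0653). It passed with array weights and without CENPU clone 1, where it was 1.10 (limma adjusted p = 0.0149), and was 0.35 without control clone 2 and CENPU clones 7 and 13 together. STAT3, the main effector of IL-6 type cytokines, differed by -0.04 (limma adjusted p = 0.894). Of 17 inhibitors of cytokine signalling 8 had a row, and SOCS7 alone passed, or 12.5% against 10.1% of all genes. SOCS7 was lower by a log2 difference of -0.45 (limma adjusted p = 0.0218), and the list median was 0.09. SOCS3, the feedback inhibitor of IL-6 signalling, differed by -0.51 and did not pass (limma adjusted p = 0.154). It passed without CENPU clone 4, at -0.68 (limma adjusted p = 0.0366), and was -0.16 without control clone 2 and CENPU clones 7 and 13 together.

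Ligands and receptor chains of these families that carry other names had 15 of 20 genes with a row, and 3 of them passed. Of these, 1 was higher and 2 were lower. The share passing was 20%, against 10.1% of all genes, around a list median of -0.16. OSMR, which pairs with IL31RA or with IL6ST, rose, with 7.03, 7.06, 7.81, 7.63 and 7.76 in CENPU clones 1, 4, 5, 7 and 13, against 6.96, 5.57, 6.59, 6.27 and 6.79 in control clones 1 to 5. The groups did not overlap (log2 difference 1.02, standard error 0.26, limma adjusted p = 0.0301). CSF3 and CSF1, the growth factors of granulocytes and macrophages, fell by 0.83 and 0.61 (limma adjusted p = 0.0347 and 0.0468). The values of both overlapped between the groups. OSMR was above the strict background level in 3 clones, CSF3 in 5 and CSF1 in 1.

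Among factors that act on cytokine mRNA, 8 of 14 had a row, and 2 of them passed, both lower. That is 25%, where 10.1% of all genes passed and 4.79% of all genes were lower. The list median was 0.13. ZC3H12A, the endonuclease that cuts IL-6 mRNA and others, fell by 1.12, and ARID5A, which protects IL-6 mRNA from it, by 0.70 (limma adjusted p = 0.0108 and 0.00401). Of 18 processing and shedding proteases 9 had a row, and FURIN alone passed, or 11.1% against 10.1% of all genes. FURIN was lower by a log2 difference of -0.60 (limma adjusted p = 0.0455), and the list median was -0.06. MYD88, JAK2, ZC3H12A and ARID5A passed in all 10 fits that left out 1 clone, SOCS7 in 8, TIRAP in 7, OSMR in 4, TAB2 and CSF3 in 3 each, and CSF1 and FURIN in 2 each. Without control clone 2 and CENPU clones 7 and 13 together, MYD88 (-0.60), ARID5A (-0.67) and CSF1 (-0.78) passed. The other 8 did not pass there, with differences of 0.36 in TAB2, 0.65 in OSMR and -0.54 in CSF3 (limma adjusted p = 0.111, 0.147 and 0.214).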

How the data were processed

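RNA of 10 PC-3 clones was measured on 1-channel Affymetrix arrays. The deposited values, 53617 rows from 1.65 to 15.0, were taken as log2, a scale inferred from their range. Partek and RMA are the tools given per the submitters' processing notes. RMA leaves background in dim rows, which shrinks their differences. The platform table and RefSeq (GRCh38.p14) named 16098 rows with 1 symbol each, and 37519 rows had no symbol. A gene with several rows was represented by the row of highest mean.

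Groups came from the labels. Nothing beyond the word clone says how separately the cultures were kept, so the p-values cover the spread between these clones, and the number of arrays limits the precision. Every row was fitted with limma 3.58.1 in R 4.3.3 (lmFit, eBayes, no covariates), with Benjamini-Hochberg adjustment over the 16098 rows. The fit was tested on simulated data with 200 changed rows. It recovered 50% of log2 differences of 0.5 and 80% of those of 1, so a member that did not pass may still differ. Members, lists and tests were chosen with earlier results of these data known. Only 1 olfactory receptor row was named, of 20 required for the first choice of background level, so the 25th percentile of all rows took its place. Named with values and test are members that passed, did not overlap, differed by at least 0.5 or were above background in all clones, and list genes that passed plus JAK1, STAT3, MYD88 and SOCS3. Alternatives changed the scaling, dim-row filter, rows, weights, prior, pairing, threshold and clones. One of them left out control 2, CENPU 7 and CENPU 13, which earlier results had placed at the ends of a trend with the genomic span of genes.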

Additional observations from a re-analysis of the deposited data

Results flagged for a closer look

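Of 104 groups of 5 clones, 52 genes in 2 groups each, 6 held a clone that stood far from the other clones by Dixon's test at the 95% level, where chance gives about 1 group in 20. IL7R was at 8.17 in control clone 3, 1.68 above the next control clone. IL17RA was at 9.20 in control clone 5, and IL17C at 6.62 in the same clone, with IL17RA above and IL17C below the other controls. IL31RA was at 5.49 in CENPU clone 5, above the other CENPU clones. IL18 was at 5.99 in CENPU clone 7 and IL17F at 3.72 in CENPU clone 13, both below the other CENPU clones.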

How the results depend on the processing

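On the deposited values 1 member was higher and 5 were lower, of 791 higher and 713 lower genes. The members higher and lower were 0 and 6 after quantile normalization, 0 and 3 with all rows of the table or with trend and robust fitting, 3 and 6 with array weights, 3 and 6 at an adjusted p under 0.10, and 0 and 1 at 0.01. Leaving out 1 clone gave 0 to 3 higher and 2 to 7 lower members, and 297 to 1463 higher and 316 to 1008 lower genes. Array weights gave 1303 higher genes, the looser threshold 1408 higher and 1180 lower, and the stricter one 130 and 123. Without control 2, CENPU 7 and CENPU 13, 0 members were higher and 2 lower, of 209 higher and 261 lower genes. That fit had 7 clones, and a call lost with fewer clones says nothing of the size of the difference. The cause of the other shifts was not tested. None of the 11 members that passed or differed by at least 0.5 changed direction in any of these fits. STAT3, which did not pass, differed by -0.04 on the deposited values and turned to 0.13 without the 3 clones, 0.0506 in the replicate block and in its 6 clones without it, and -0.139 to 0.0517 without 1 clone.

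Clone numbers 1, 4 and 5 occur in both groups and name separate isolates. Deviations from the group means correlated at -0.375, 0.104 and 0.0249 between clones of the same number. Among controls 1, 4 and 5, 2 of 3 CENPU clones correlated best with the control of their number. With only 3 numbers this cannot show whether they pair the samples, and the main fit left the clones unpaired. A replicate block over these 6 clones left 0 higher and 0 lower members, and 22 higher and 33 lower genes, against 58 and 89 without the block in the same clones (limma).

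The pathway lists held 1 to 3 genes that passed on the deposited values. Leaving out 1 clone gave 1 to 7 adaptors and kinases, 0 to 4 ligands and receptors with other names, 1 to 2 JAK and STAT genes, 0 to 2 inhibitors, 0 to 2 proteases and 2 to 3 mRNA decay factors. With array weights or at 0.10 the adaptors and kinases had 6 and the JAK and STAT genes 2, and at 0.10 the proteases had 3. The proteases had 0 after median centring, with all rows and with trend and robust fitting. Without the 3 clones each list had 0 or 1, in the replicate block and its 6 clones 0, and at 0.01 each list had 0 except the mRNA decay factors with 1.

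Members above background numbered 37 at the 25th percentile of all rows, 42 where 5 clones sufficed, 37 after quantile normalization and 26 at the median of all rows. They numbered 21, 6 and 4 at the 75th, 90th and 95th percentile of hair and skin genes, which were added after the data were seen. Percentiles of olfactory receptor rows could not be used, and no member had a second row to exchange.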
